A study of Rattus norvegicus with 47 samples.

Results

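Chemokine receptors are the surface receptors by which blood leukocytes are held in, released from and called out of the bone marrow, lymph nodes and injured tissue. The 9 receptor genes chosen were Cxcr1 and Cxcr2, best known from neutrophils, Ccr1, carried by neutrophils and monocytes, Ccr2 and Cx3cr1, which divide the monocytes between them, Ccr6, Ccr7 and Cxcr3, found on lymphocytes, and Cxcr4, found on most leukocytes. They were found by gene symbol, the set having been picked with earlier results of these data known, and values are given for 8 of them, all but Ccr2, each with 1 probe set among the 27596 on the array, of which 21406 had a symbol. The blood came from 8 male spontaneously hypertensive rats (SHR), 16 weeks old, in which the middle cerebral artery (MCA) was occluded by a thread. The thread was withdrawn under renewed anaesthesia between the 1 h and the 2 h sample. Blood was drawn at 0 h, just before anaesthesia, at 1, 2, 3 and 6 h from the lateral tail vein, in each case into heparin, and at 24 h by heart puncture after an overdose of anaesthetic. This gave 47 arrays, 8 at each time point except 6 h, with 7, where 1 rat had no sample.

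All groups share the strain, the sex and the hypertension, the 0 h sample was the first draw and each later one followed further bleeding, and there were no untreated or sham-operated rats, so that the effects of the occlusion, the reperfusion, the anaesthesia, the surgery and the bleeding cannot be told apart, nor can those of 24 h and of the heart puncture. Values are the authors' mean and deposited SD of the log2 signal over the arrays of a time point. Nothing tied the single arrays to their samples, so their values are not given and the overlap of single arrays was not assessed. A change is a difference of 2 means on the log2 scale, where 1 is a doubled signal. It is given with the standard error (SE) of a limma model of all 6 time points, and it was called where the Benjamini-Hochberg adjusted p over all 27596 probe sets was below 0.05. The signal of 1 probe set was not compared with that of another, except that some levels were set against all probe sets. In whole blood, fewer cells of a type and less RNA per cell cannot be told apart.

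Chemokine receptors are G protein-coupled receptors. Bound ligand acts through inhibitory G proteins, phospholipase C beta and phosphoinositide 3-kinase gamma to turn the cell toward the source, and receptor kinases, arrestins and RGS proteins switch the signal off. CXCR2 draws neutrophils out of the marrow and CXCR4 keeps them in it. CCR2 releases classical monocytes, CX3CR1 supports the patrolling non-classical ones, and CCR7 steers naive lymphocytes into lymph nodes.

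All 8 receptors varied over the 6 time points by the moderated F-test, as did 55.5% of all probe sets. Neutrophil receptors and Ccr1 were higher than at 0 h from 1 h on, Ccr7 and Cx3cr1 were lower from 1 h on, Ccr6 was lower from 1 h to 6 h, Cxcr4 was lower from 2 h on, and Cxcr3 changed least. The range of the 6 means ran from 0.21 for Cxcr3 to 2.38 for Ccr1 on the log2 scale.

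**Figure D1:**
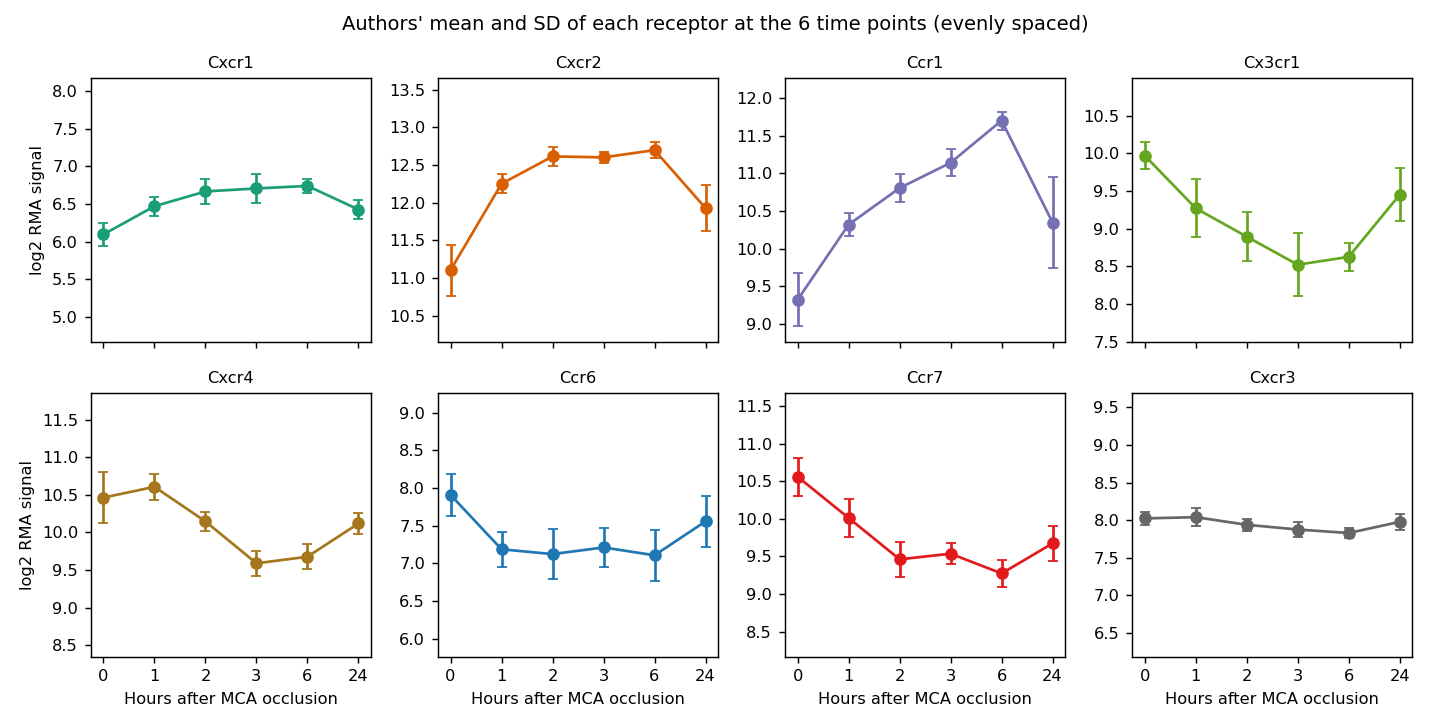
Authors' mean log2 RMA signal (vertical axes, each 3.5 log2 units high) of the 8 receptors by hours after MCA occlusion, with the time points evenly spaced. Points are the authors' means of 8 arrays, or 7 at 6 h, and bars are 1 deposited SD to each side. Ccr1 climbs from 9.32 to 11.70 by 6 h, while Cxcr3 stays between 7.83 and 8.04.

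Cxcr2, the receptor for the neutrophil-attracting CXCL1 to CXCL3 group, rose by 1.15 within 1 h of the occlusion and stayed high to 6 h. At 0, 1, 2, 3, 6 and 24 h its mean log2 signal was 11.10 ± 0.34, 12.25 ± 0.13, 12.62 ± 0.13, 12.60 ± 0.08, 12.70 ± 0.10 and 11.93 ± 0.31 in turn (SD, n = 8, and 7 at 6 h). The means at 2, 3 and 6 h lay within an SD of each other, and each other step down this order, to 1 h, to 24 h and to 0 h, was larger than the SD of either time point. The change from 0 h was largest at 6 h, at 1.59 ± 0.10 (SE), a 3.02-fold rise (adjusted p = 2.1e-17). At 24 h the change was 0.82 ± 0.10 (adjusted p = 2.64e-08), 51.7% of that at 6 h on the log2 scale. The SD was 0.34 at 0 h and 0.31 at 24 h but at most 0.13 at the time points between.

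Cxcr1, the other neutrophil receptor of this family, which lies beside Cxcr2 on chromosome 9, was also higher at all 5 later time points. On rn5 its probe set spans chr9:81232119-81233180 on the minus strand, 32.3 kb from that of Cxcr2 at chr9:81193442-81199814 on the plus strand. Its mean log2 signals were 6.10 ± 0.15, 6.47 ± 0.12, 6.67 ± 0.16, 6.71 ± 0.19, 6.74 ± 0.10 and 6.43 ± 0.13 (SD, n = 8, and 7 at 6 h) from 0 h to 24 h in the same order. The means at 2, 3 and 6 h did not differ beyond their SD, nor did those at 1 h and 24 h, and the mean at 0 h was the lowest. All 5 changes from 0 h were called, from 0.33 ± 0.07 (SE) at 24 h (adjusted p = 0.000615) to 0.64 ± 0.08 at 6 h (adjusted p = 1.61e-09), a 1.56-fold rise. At 24 h, 51.3% of the largest log2 change of Cxcr1 was left. The Cxcr1 signal was low, with a 0 h mean below the median of all probe sets, 6.61. By mean signal it stood at percentile 46.3 of the array, and Cxcr2 at percentile 99.0. Whether the low level affects the size of its changes was not tested. Whether the changes of Cxcr1 and Cxcr2 differ in size was not tested, because this needs the single arrays.

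The DNA around the start of a gene is where factors set its rate of transcription, so the promoters of 4 receptors that moved in different ways are printed to show how far they differ in sequence. They are RefSeq sequences on GRCr8, 250 bases before the annotated start and 50 from it on, matched by symbol for 7 of the 8 receptors, all but Ccr7. Each was searched on both strands for 4 short motifs, and matches are in capitals: a GC box (GGGCGG, in 34.9% of 27457 rat promoters), a TATA element (TATAAA, in 14.3%), the core bound by RUNX factors (TGTGGT, in 16.9%) and a core bound by PU.1 (GAGGAA, in 27.5%). A match is only a run of letters and does not show that a factor binds. The promoter of Cxcr2 (GRCr8 chr9:83178395-83178694, plus strand) held none of the 4.
Cxcr2: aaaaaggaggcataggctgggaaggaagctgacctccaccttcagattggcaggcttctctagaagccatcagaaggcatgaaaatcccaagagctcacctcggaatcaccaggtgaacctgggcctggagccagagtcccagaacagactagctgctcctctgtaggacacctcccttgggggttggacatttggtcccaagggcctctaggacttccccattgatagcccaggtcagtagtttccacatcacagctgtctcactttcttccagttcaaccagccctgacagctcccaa
The promoters of Cxcr1 and Cxcr3 also held none.

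Ccr1, a receptor for CCL3, CCL5 and related chemokines on neutrophils and monocytes, had the largest change of the 8 receptors and was still climbing between 3 h and 6 h. At 0, 1, 2, 3, 6 and 24 h its mean log2 signal was 9.32 ± 0.35, 10.32 ± 0.15, 10.81 ± 0.19, 11.14 ± 0.18, 11.70 ± 0.12 and 10.35 ± 0.60 in turn (SD, n = 8, and 7 at 6 h). The order of the levels was 6 h, 3 h, 2 h, 24 h, 1 h and 0 h, and of the neighbours in this order 24 h differed from neither 2 h nor 1 h beyond its SD of 0.60. At 6 h the rise was 2.38 ± 0.16 (SE) or 5.21-fold (adjusted p = 2.05e-17), and at 24 h it was 1.02 ± 0.15 or 2.03-fold (adjusted p = 1.16e-06). The SD at 24 h, 0.60, was the largest of any receptor at any time point. Ccr1l1, a close relative of Ccr1, rose by 0.39 at 1 h (adjusted p = 0.0034) and by 1.64 at 6 h (adjusted p = 4.25e-17), and binding of 1 gene's RNA to the other's probes was not assessed. The promoter of Ccr1 (GRCr8 chr8:132439217-132439516, minus strand) held a PU.1 core 245 bases and a RUNX core 174 bases before the start.
Ccr1: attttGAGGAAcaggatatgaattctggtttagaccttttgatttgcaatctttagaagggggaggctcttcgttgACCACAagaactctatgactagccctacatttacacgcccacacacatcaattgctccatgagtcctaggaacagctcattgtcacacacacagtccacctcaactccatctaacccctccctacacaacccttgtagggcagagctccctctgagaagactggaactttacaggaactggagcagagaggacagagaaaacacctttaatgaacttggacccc
The rn5 position of the Ccr1 probe set is chr8:132147926-132153481 on the minus strand, 4.19 Mb from that of Cx3cr1.

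Cx3cr1, the fractalkine receptor of non-classical monocytes and some cytotoxic lymphocytes, fell at all 5 later time points and was lowest at 3 h. At 0, 1, 2, 3, 6 and 24 h its mean log2 signal was 9.97 ± 0.18, 9.27 ± 0.39, 8.89 ± 0.33, 8.52 ± 0.42, 8.63 ± 0.19 and 9.45 ± 0.36 in turn (SD, n = 8, and 7 at 6 h). Of the steps between neighbouring levels, only that from 0 h down to 24 h was larger than the SDs. Levels further apart did differ by the limma model. The 24 h mean was above that at 2 h by 0.56 (adjusted p = 0.00785) and that at 3 h by 0.93 (adjusted p = 1.06e-05). At 3 h the signal fell by 1.45 (SE 0.15) on the log2 scale, to 2.73-fold below 0 h (adjusted p = 1.03e-10). At 24 h it was lower by 1.43-fold, with a log2 change of -0.52 ± 0.15 (adjusted p = 0.00893). It rose by 0.83 ± 0.16 from 6 h to 24 h (adjusted p = 9.94e-05). The promoter of Cx3cr1 (GRCr8 chr8:128677017-128677316, minus strand) held a RUNX core 153 and another 89 bases before the start.
Cx3cr1: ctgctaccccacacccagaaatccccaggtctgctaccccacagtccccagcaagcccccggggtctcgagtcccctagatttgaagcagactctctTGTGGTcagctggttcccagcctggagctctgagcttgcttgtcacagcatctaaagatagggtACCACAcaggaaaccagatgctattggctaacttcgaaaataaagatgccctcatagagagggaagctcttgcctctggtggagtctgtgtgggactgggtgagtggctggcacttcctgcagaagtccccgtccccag
The promoter of Ccr6 had 1 RUNX core and 1 PU.1 core.

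Ccr7, which guides naive T and B cells to lymph nodes, fell at every later time point and had most of its change left at 24 h. Its mean log2 signals were 10.56 ± 0.26, 10.01 ± 0.26, 9.46 ± 0.24, 9.54 ± 0.14, 9.27 ± 0.18 and 9.67 ± 0.23 (SD, n = 8, and 7 at 6 h) from 0 h to 24 h in the same order. The first steps down, from 0 h to 1 h and from 1 h to 24 h, exceeded the SDs, and neighbours among 24, 3, 2 and 6 h did not. At 6 h the change was -1.29 ± 0.11 (SE), 2.44-fold lower (adjusted p = 1.78e-13), and at 24 h it was -0.89 ± 0.11, 1.85-fold lower (adjusted p = 1.93e-08). This left 68.9% of the largest log2 change at 24 h, against 23.6% to 51.7% for the 7 other receptors. These shares are ratios of point estimates, and whether they differ between receptors was not tested. The low end, 23.6%, belongs to Cxcr3 and depends on the scaling. With quantile normalization the 24 h change of Cxcr3 turned to 0.05.

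Ccr6, the CCL20 receptor of B cells and some T helper cells, was lower than at 0 h at 1, 2, 3 and 6 h. At 0, 1, 2, 3, 6 and 24 h its mean log2 signal was 7.91 ± 0.28, 7.19 ± 0.23, 7.12 ± 0.33, 7.21 ± 0.26, 7.11 ± 0.34 and 7.56 ± 0.34 in turn (SD, n = 8, and 7 at 6 h). The means at 1, 2, 3 and 6 h did not differ beyond their SD. The change was -0.72 ± 0.14 (SE) at 1 h (adjusted p = 9.94e-05) and -0.80 ± 0.15 at 6 h, 1.74-fold lower (adjusted p = 1.85e-05). At 24 h the change of -0.35, with a 95% interval from -0.64 to -0.06, missed the threshold (adjusted p = 0.0546), and over the alternatives its adjusted p ran from 0.0352 with median centring, through 0.0469 without the dimmest probe sets, to 0.161 with quantile normalization.

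Cxcr3, the receptor for CXCL9 to CXCL11 on effector T cells and NK cells, changed least. Its mean log2 signals were 8.02 ± 0.09, 8.04 ± 0.12, 7.94 ± 0.08, 7.88 ± 0.09, 7.83 ± 0.07 and 7.98 ± 0.11 (SD, n = 8, and 7 at 6 h) from 0 h to 24 h in the same order. No 2 neighbours in the order of these means differed beyond their SD. It was called lower at 3 h, by -0.15 ± 0.05 (SE, adjusted p = 0.0168), and at 6 h, by -0.19 ± 0.05 (adjusted p = 0.00287). Both calls were lost with quantile normalization of the means, where the changes were -0.04 (adjusted p = 0.576) and -0.07 (adjusted p = 0.314).

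Cxcr4, the receptor for CXCL12 that retains leukocytes in the marrow, was not called at 1 h and fell between 1 h and 3 h. At 0, 1, 2, 3, 6 and 24 h its mean log2 signal was 10.46 ± 0.34, 10.61 ± 0.17, 10.15 ± 0.13, 9.59 ± 0.16, 9.68 ± 0.17 and 10.12 ± 0.13 in turn (SD, n = 8, and 7 at 6 h). The means at 3 and 6 h stood apart below the other time points, with 0.44 between 6 h and 24 h, while neighbours among 1, 0, 2 and 24 h did not differ beyond their SD. The change at 1 h was 0.14, with a 95% interval from -0.05 to 0.34 (adjusted p = 0.243). It was -0.32 ± 0.10 (SE) at 2 h (adjusted p = 0.00743) and -0.87 ± 0.10 at 3 h, 1.83-fold lower (adjusted p = 2.7e-10). At 24 h it was -0.34 ± 0.10 (adjusted p = 0.00572). The promoter of Cxcr4 (GRCr8 chr13:42634239-42634538, minus strand) was the only one of the 7 with a GC box, which it had at 108, 88 and 64 bases before the start, or a TATA element, with 2 overlapping matches at 46 and 44 bases.
Cxcr4: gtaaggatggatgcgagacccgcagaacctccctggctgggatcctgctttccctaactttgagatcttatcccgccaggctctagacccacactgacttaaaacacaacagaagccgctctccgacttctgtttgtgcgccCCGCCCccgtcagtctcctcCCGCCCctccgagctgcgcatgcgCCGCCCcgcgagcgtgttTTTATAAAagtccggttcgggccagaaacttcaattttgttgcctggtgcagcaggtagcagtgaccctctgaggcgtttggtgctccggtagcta
It also held 20 CG pairs, against 1 to 6 in the other 6 promoters and a median of 7 over all rat promoters.

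**Figure D2:**
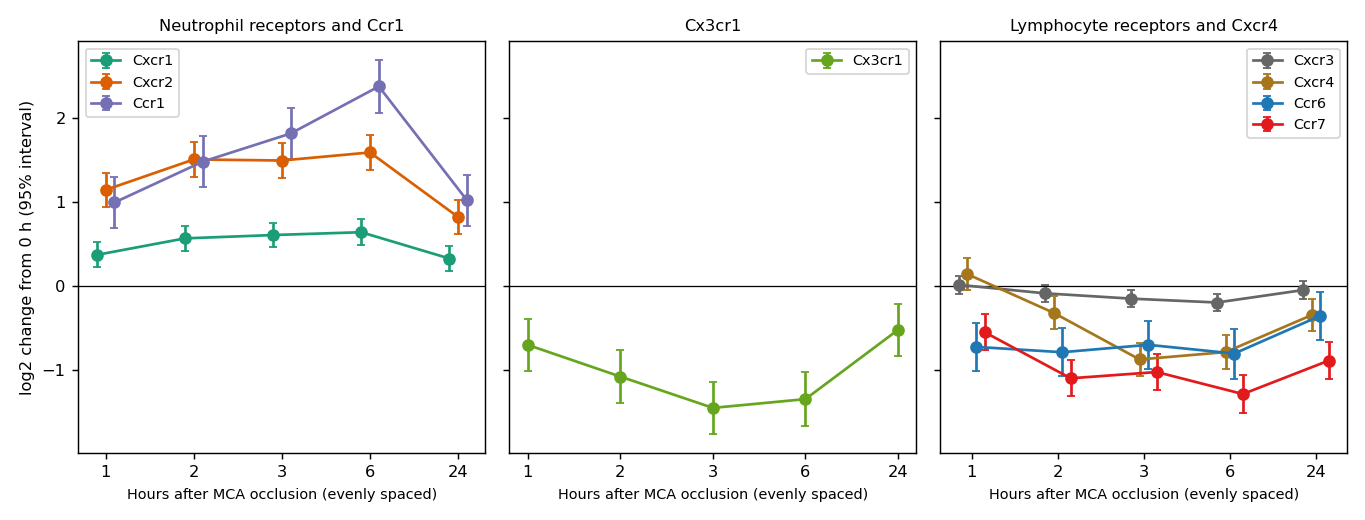
Change from 0 h of the log2 signal (vertical axis) of the 8 receptors at 1, 2, 3, 6 and 24 h, evenly spaced, in 3 panels. Points are differences of the authors' means and bars their 95% intervals from the limma model. Ccr1 climbs from 1.00 at 1 h to 2.38 at 6 h, and Cxcr4 drops from 0.14 at 1 h to -0.87 at 3 h.

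Counted over the 8 receptors, 3 were called higher at 1 h (Cxcr1, Cxcr2, Ccr1) and 3 lower (Ccr6, Ccr7, Cx3cr1). Of all probe sets 37.1% were called at 1 h, 21.7% higher and 15.4% lower. At 2 h, 3 were higher and 4 lower, with only Cxcr3 not called, against 40.4% of all probe sets, 21.7% higher and 18.6% lower. At 3 h, 3 were higher and 5 lower, against 46.5% of all, 27.3% higher and 19.2% lower. The counts were the same at 6 h, against 41.8% of all, 22.5% higher and 19.3% lower. At 24 h, Cxcr1, Cxcr2 and Ccr1 were higher and Cxcr4, Ccr7 and Cx3cr1 lower, against 31.2% of all, 17.4% higher and 13.9% lower. The share of receptors called was above that of all probe sets at each time point. Calls were common on the whole array, and the receptors are too few for more to be read from their count. The receptors were also picked with earlier results of these data known. All but Cxcr1 lay at percentile 66.3 of mean signal or above. The shares therefore cannot show that receptors were called more often than comparable genes.

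Steps between neighbouring time points show when each receptor moved. Between 1 h and 2 h the thread was withdrawn under renewed anaesthesia, and the effects of the withdrawal and the anaesthesia cannot be told apart. In this interval Cxcr2 rose by 0.36 (adjusted p = 0.0153) and Ccr1 by 0.49 (adjusted p = 0.0325). Over the same hour Cxcr4 fell by 0.46 (adjusted p = 0.000973) and Ccr7 by 0.55 (adjusted p = 0.000389). These 4 of 8 stand beside 8.78% of all probe sets called for this step, 4.66% higher and 4.11% lower. From 2 h to 3 h only Cxcr4 was called, with a fall of 0.56 (adjusted p = 0.00014), against 3.53% of all, 1.9% higher and 1.62% lower. From 3 h to 6 h only Ccr1 was called, with a rise of 0.56 (adjusted p = 0.0258), against 4.78% of all, 2.34% higher and 2.44% lower.

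From 6 h to 24 h all 8 receptors moved back toward 0 h. Cxcr1 fell by 0.31, Cxcr2 fell by 0.77 and Ccr1 fell by 1.36, and Cxcr3, Cxcr4, Ccr6, Ccr7 and Cx3cr1 rose, by 0.15 to 0.83. All were called, against 18.9% of all probe sets, 10.2% higher and 8.68% lower. The call of Cxcr3 (adjusted p = 0.0428) was lost in 4 of 6 alternatives, with adjusted p from 0.0543 to 0.126, and that of Ccr6 (adjusted p = 0.025) where only the variance of the 2 time points was used (adjusted p = 0.051).

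The level at 24 h was also set against the early levels. Against 2 h, Cxcr1, Cxcr2 and Ccr1 were lower and Ccr6 and Cx3cr1 higher, while 16.2% of all probe sets were called, 8.7% higher and 7.52% lower. Ccr1 (-0.46, adjusted p = 0.0279) and Ccr6 (0.43, adjusted p = 0.0288) lost this call where only the variance of the 2 time points was used (adjusted p = 0.118 and 0.0501). Cxcr4 at 24 h differed from 2 h by -0.03, with a 95% interval from -0.22 to 0.17. Against 3 h, the same 3 receptors were lower and Cxcr4 and Cx3cr1 higher, by 0.53 and 0.93, while 13.8% of all were called, 6.67% higher and 7.17% lower. Ccr7 at 24 h differed from 3 h by 0.14, with an interval from -0.08 to 0.35.

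**Figure D3:**
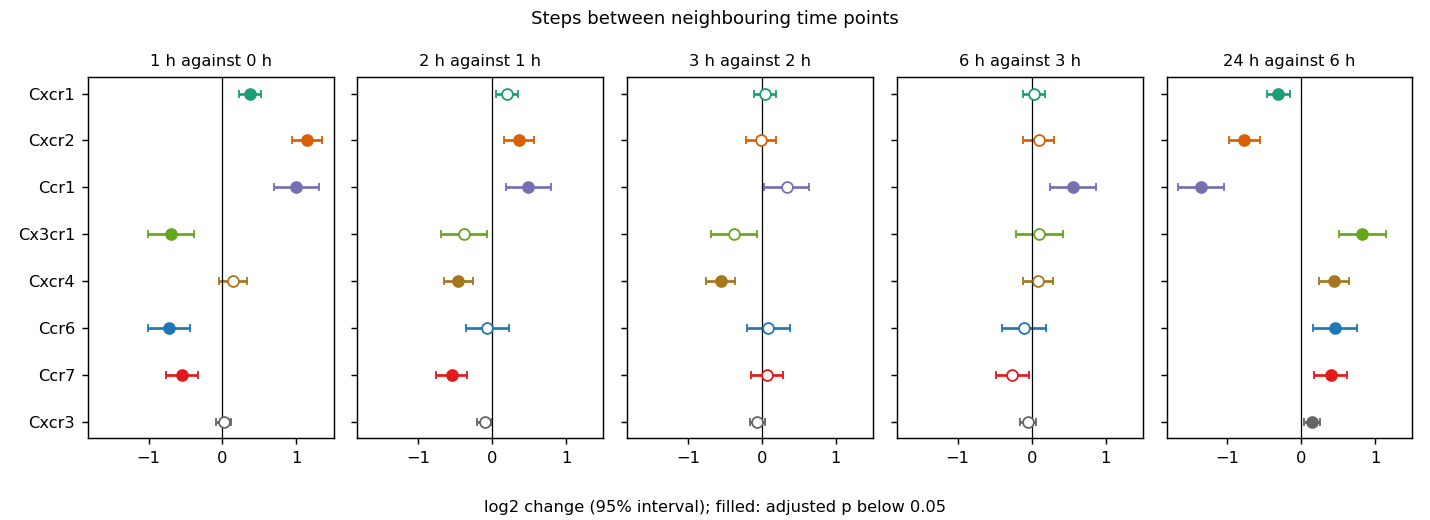
Change of the log2 signal (horizontal axes) of each receptor over the 5 steps between neighbouring time points. Points are differences of the authors' means, filled where the adjusted p was below 0.05, and bars are 95% intervals. At the step from 2 h to 3 h only Cxcr4 is filled (-0.56), from 3 h to 6 h only Ccr1 (0.56), and from 6 h to 24 h all 8 are.

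Markers of the blood cell types moved in the same samples, and their part in the changes of the receptors was not tested. The 12 neutrophil markers were all higher at 1 h and 2 h, with a median change of 1.15 and 1.61, while 21.7% of all probe sets were higher at each of these time points. At 24 h 8 were still higher, against 17.4% of all, and the median was 0.65. At 1, 2 and 24 h Cxcr2 had changes of 1.15, 1.51 and 0.82, and Cxcr1 of 0.37, 0.57 and 0.33. Il1r2, a decoy receptor for interleukin 1, rose most, by 3.33 at 6 h, and Ngp, a granule protein of immature neutrophils, was lower by 0.90 at 24 h (adjusted p = 0.00259), when Cxcr1 and Cxcr2 were still higher. The mean log2 signal over the neutrophil markers ran from 9.62 at 0 h to 11.41 at 6 h.

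The share of all probe sets called lower was 15.4%, 18.6%, 19.2%, 19.3% and 13.9% from 1 h to 24 h, in that order. The 12 T cell markers were all lower at 2, 3 and 6 h, with median changes of -0.90, -0.99 and -1.14, and 11 were lower at 24 h, with a median of -0.70. Ccr7 had changes of -1.10, -1.02, -1.29 and -0.89 at 2, 3, 6 and 24 h, and Cxcr3 of -0.08, -0.15, -0.19 and -0.05. At 6 h the coreceptor Cd4 fell by 1.55 and the costimulatory receptor Cd28 fell by 1.45, the largest falls in the list. Of 12 B cell markers 11 were lower at 1 h, with a median change of -2.05 at 3 h and one of -0.53 at 24 h. Ms4a1, which codes for CD20, fell by 2.56 at 2 h. Ccr6 had -0.72 at 1 h, -0.70 at 3 h and -0.35 at 24 h. Of 9 NK cell markers, 7 were lower at 3 h and 6 h and 8 at 24 h, where the median change of -0.82 was the lowest of the 5 time points, and the activating receptor Klrk1 fell by 1.35 at 6 h. Ncr1, another activating receptor on that list, was higher by 0.24 at 1 h (adjusted p = 0.0335), by 0.22 at 2 h (adjusted p = 0.0446) and by 0.34 at 6 h (adjusted p = 0.00347).

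Of 12 monocyte markers, 5 were higher and 5 lower at both 3 h and 6 h, against 27.3% and 19.2% of all probe sets at 3 h and 22.5% and 19.3% at 6 h, and the median change stayed between -0.11 and 0.16 over the 5 time points. Vcan, a matrix proteoglycan of classical monocytes, rose by 2.37 at 3 h and Cd14, the endotoxin coreceptor, by 1.84 at 3 h. Ly86, a partner of a Toll-like receptor relative, fell by 1.79 at 3 h (adjusted p = 1.67e-14). Nr4a1, the factor that non-classical monocytes need, fell by 1.59 (adjusted p = 4.25e-14), when Cx3cr1 fell by 1.45. NK and B cell markers also fell at 3 h, with medians of -0.79 and -2.05. Which cells the fall of Cx3cr1 came from was not tested. Platelet markers were higher in 7 of 9 genes at 1 h, with a median change of 0.32, in 1 of 9 at 6 h, and in 6 of 9 at 24 h, with a median of 0.36, against 21.7%, 22.5% and 17.4% of all probe sets. Erythroid markers had medians between -0.12 and 0.13. The median change of all probe sets was 0.04 to 0.07 at the 5 time points.

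**Figure D4:**
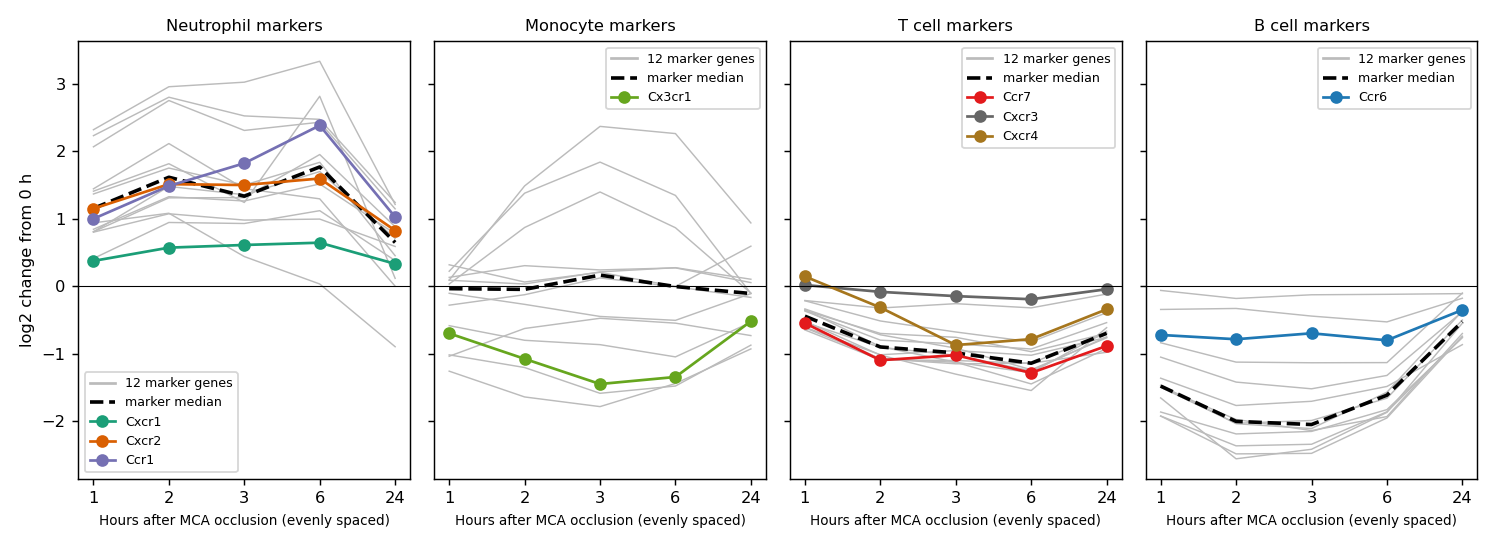
Change from 0 h of the log2 signal (vertical axis) at 1, 2, 3, 6 and 24 h, evenly spaced, for 12 marker genes of each of 4 cell types (grey), their median (dashed) and receptors known from that type (coloured). Cxcr2 lies near the neutrophil median (1.51 and 1.61 at 2 h), Ccr6 above the B cell median (-0.79 and -2.00 at 2 h), and monocyte markers spread to both sides of 0, while Cx3cr1 lies below it (-1.45 at 3 h).

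Ligand genes of these receptors were measured in blood cells only, not in the tissues that make most of them. Of 21 ligand genes, 16 varied over time by the F-test, against 55.5% of all probe sets, with 9 higher and 5 lower at 3 h, against 27.3% and 19.2%, where the median change was 0.12 against 0.07 for all probe sets. Of the ligands of CCR2, Ccl2 rose by 1.15 at 2 h (adjusted p = 6.67e-05) and by 1.32 at 3 h (adjusted p = 7.04e-06), and its change at 24 h was -0.29 (adjusted p = 0.34). Its SD of 0.65 at 0 h was wide. Ccl7 rose by 0.36 at 3 h, from a 0 h mean of 5.88, below the median of all probe sets, 6.61. For Ccr1, Ccl6 rose by 0.64 at 2 h (adjusted p = 4.45e-12), while Ccl3 fell by 0.74 at 24 h (adjusted p = 0.000563), Ccl5 fell by 0.48 at 24 h (adjusted p = 0.0129) and Ccl9 fell by 0.50 at 24 h (adjusted p = 4.31e-05). Ligands of 1 receptor thus did not share a direction. For Cxcr3, Cxcl10, an interferon-induced chemokine, fell by 1.03 at 6 h (adjusted p = 4.81e-09). The changes of Cxcl9 lay between 0.02 and 0.24, from a 0 h mean of 5.33, also below that median.

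The measured changes of the ligands of the other receptors were small, and most of their signals were low. The 0 h means of Cxcl2 (5.40), Cxcl12 (5.71), Ccl20 (6.11), Cx3cl1 (6.27) and Ccl19 (6.52) lay below the median of all probe sets, 6.61. Those of Cxcl1 (6.73) and Ppbp (12.20) lay above it. Whether the low signals exceeded background was not assessed, so expression of these ligands in blood cells is not shown. For Cxcr1 and Cxcr2, the changes of Cxcl1 lay between 0.11 and 0.24, and Cxcl2 had a change of 0.42 at 1 h (adjusted p = 0.0436) with an SD of 0.66 at 0 h. Ppbp, a platelet chemokine, had 0.30 at 24 h (adjusted p = 0.0278). For Cxcr4, Cxcl12 rose by 0.12 to 0.23. For Ccr6, Ccl20 rose by 0.24 at 3 h (adjusted p = 0.00234), for Ccr7, Ccl19 rose by 0.20 at 6 h (adjusted p = 0.00279), and for Cx3cr1 no change of Cx3cl1 was called, with values between -0.04 and 0.09. The 6 ligand genes not yet named, Cxcl3, Cxcl6, Cxcl11, Ccl4, Ccl21 and Mif, had changes between -0.30 and 0.34. Of these only Ccl4 (7.66) and Mif (8.89) had a 0 h mean above that median.

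Of 15 other chemokine receptors, 9 varied over time, against 55.5% of all probe sets, with 4 higher and 5 lower at 3 h, against 27.3% and 19.2%, and a median change of -0.02. After Ccr1l1 the largest rise was in Xcr1, a dendritic cell receptor, by 0.30 at 6 h (adjusted p = 0.000834). The largest falls were in Ccr3, the eosinophil receptor for eotaxins, by 0.76 at 3 h (adjusted p = 1.37e-06), and Cxcr5, which takes B cells into follicles, by 0.60 at 1 h (adjusted p = 1.41e-05). All 10 receptors for other attractants with a probe set varied over time, with 6 higher and 4 lower at 6 h, against 22.5% and 19.3% of all probe sets. Fpr1, the formyl peptide receptor of neutrophils that is also among the neutrophil markers, rose by 2.80 at 2 h, and Ptafr, the receptor for platelet-activating factor, rose by 1.73 at 6 h. S1pr5, which lets NK cells and patrolling monocytes leave the marrow, fell by 1.08 at 3 h, and Gpr183, the oxysterol receptor that positions B cells, fell by 0.98 at 2 h.

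Among 24 genes of receptor signalling and its shutdown, 21 varied over time, against 55.5% of all probe sets, with 10 higher and 8 lower at 3 h, against 27.3% and 19.2%, and a median change of -0.03. Plcb2, the phospholipase C beta of blood cells, whose probe set is also annotated to Ankrd63, rose by 1.45 at 2 h (adjusted p = 3.09e-19). Pik3cg, the phosphoinositide 3-kinase of chemoattractant receptors, fell by 0.80 at 6 h (adjusted p = 1.64e-10). Of the receptor kinases, Adrbk2 fell by 1.05 at 2 h (adjusted p = 1.64e-09), while Grk5 rose by 0.73 at 6 h (adjusted p = 1.52e-09). Rgs1, which shortens G protein signals in lymphocytes, rose by 1.32 at 1 h (adjusted p = 2.21e-05) and was lower by 0.70 at 24 h (adjusted p = 0.0216), with an SD of 0.79 at 0 h.

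The genes whose 5 changes lay closest to those of each receptor were taken from 19410 other genes by the root mean square difference on the log2 scale, as a description. For Cxcr2 they were Mettl9, Tf and Adam8, at 0.07 to 0.09, and for Cxcr1 Senp2, LOC690483 and Olr769, at 0.04 to 0.06. For Ccr1 they were Fbxl5, Tas2r135 and Tas2r143, at 0.14 to 0.15. For Ccr7 they were Cd69, Cd28 and Lef1, at 0.05 to 0.09, and for Cx3cr1 Ikzf3, Cd24 and Xkrx, at 0.08 to 0.11. For Ccr6 they were RGD1559575, Mpp6 and Tmem163, at 0.04 to 0.05, and for Cxcr3, which hardly moved, RGD1563680, Ambn and Itga3, at 0.01 to 0.02. The nearest gene to Cxcr4 was another chemokine receptor, Ccr3, at 0.11, with changes of 0.19, -0.49, -0.76, -0.67 and -0.32 at 1, 2, 3, 6 and 24 h, beside 0.14, -0.32, -0.87, -0.79 and -0.34 for Cxcr4. The next 2 were LOC102550385 and RGD1562667, both at 0.16.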

How the data were processed

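Blood mRNA of 8 SHR rats was measured on 47 Affymetrix RaGene 1.0 ST arrays, after RNA preparation from blood cell pellets in batches among which the samples were randomized. The authors summarised the arrays by RMA and deposited, for each of 27596 probe sets, the mean and SD of the log2 signal at each of 6 time points, with symbols and positions on rn5. The table also holds the authors' fold changes, p-values and FDRs between time points and over the time course, which were not used, and 47 columns of single arrays, which could not be matched to samples and were not used in any step. The submitters' processing notes name limma.

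From the means, SDs and array numbers, a linear model with 1 mean per time point was fitted in limma 3.58.1 (R 4.3.3), with the residual variance pooled over the time points (41 degrees of freedom) and moderated by eBayes (5.71 prior degrees of freedom). This equals a fit to the arrays without a term for the rat, so repeated samples of a rat were taken as independent. P-values were two-sided and adjusted by Benjamini-Hochberg over all 27596 probe sets, with no filter. The fit was tested on simulated data. The number of arrays limits the precision, and signal over background was not assessed.

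Each receptor or list gene was taken by its symbol, from the probe set with the highest mean. Genes named are the 8 receptors, their ligands, the 3 closest genes per receptor and genes from the 2 largest rises and falls of each list. For the neutrophil, T cell, B cell and NK cell lists only some of these were named. For the platelet and erythroid lists none were. Grk5 was named after its values were seen. The receptors and lists were chosen with earlier results of these data known. Il2rb, C5ar1 and Gng2 were not matched by symbol. Ccr2 and 1 gene of the list of other chemokine receptors are not reported here. Alternatives were median centring, quantile normalization of the means, a filter on dim probe sets, no moderation, an intensity trend with a robust prior, the variance of the 2 time points only, and the 24 h samples left out.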

Additional observations from a re-analysis of the deposited data

How the results depend on the processing

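Of 584 changes of a receptor recomputed under the alternatives, 568 kept their direction and their side of the threshold, 9 lost and 3 gained a call, and 4 turned direction; all 48 F-tests of a receptor kept their call. With only the variance of the 2 time points, 2 receptors were called from 2 h to 3 h, Ccr1 (0.34, adjusted p = 0.0409) beside Cxcr4, and 3 in place of 5 at 24 h against 2 h, where Ccr1 and Ccr6 lost their call. The turned values were small: Cxcr3 had -0.0323 at 1 h with median centring and, with quantile normalization, 0.0293 at 2 h and 0.0452 at 24 h, and Cxcr2 had 0.027 from 2 h to 3 h with quantile normalization; the cause was not tested. Over all probe sets, centring changed the split of calls from 5997 higher and 4240 lower to 3465 and 5189 at 1 h, from 6002 and 5137 to 4443 and 5602 at 2 h, from 7539 and 5296 to 5284 and 5911 at 3 h, from 6213 and 5326 to 4670 and 5808 at 6 h, from 4794 and 3826 to 2749 and 4627 at 24 h, and from 1287 and 1135 to 1516 and 839 from 1 h to 2 h. With centring the majority direction also turned from 2 h to 3 h, from 525 and 448 to 460 and 516. From 3 h to 6 h it turned from 645 and 674 to 697 and 605. From 6 h to 24 h it turned from 2817 and 2394 to 2590 and 2611. For 24 h against 2 h it turned from 2401 and 2075 to 2142 and 2276. From 3 h to 6 h, 1319 probe sets were called, and 737 with only the variance of those 2 time points. No paired analysis was possible because the single arrays could not be matched to rats, and for the same reason no sample could be left out in turn. Each receptor had 1 probe set, so no other probe set could be tried.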
